A study of Mus musculus with 6 samples.

Results

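Genes that bring pyruvate into the tricarboxylic acid (TCA) cycle and run the cycle were compared between untreated BV2 cells and BV2 cells stimulated with sTREM-1. The 9 genes were taken from the count table by symbol, and they are 9 of its 46095 genes: Pdha1, Pcx, Cs, Idh3a, Ogdh, Dlst, Suclg1, Fh1 and Mdh2. All 9 were abundant enough to be tested, among 14120 tested genes. BV2 is a mouse microglial cell line immortalised with a retrovirus that carries raf and myc oncogenes. The CON group held 3 libraries of untreated BV2 cells. The sTREM-1 group held 3 libraries of BV2 cells given recombinant sTREM-1, the soluble form of a receptor of myeloid cells, at 1 µg/mL for 6 h. Nothing in the labels says that the libraries of a group came from separate experiments, so the p-values measure the spread between these libraries, which may be technical.

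Pyruvate, the end product of glycolysis, enters the mitochondrial cycle by 2 routes. Pyruvate dehydrogenase oxidises it to acetyl-CoA, and pyruvate carboxylase (Pcx) turns it into oxaloacetate, which refills the cycle. Citrate synthase (Cs) joins both products, and the cycle then loses carbon at the isocitrate and oxoglutarate steps before succinate, fumarate and malate regenerate oxaloacetate. In activated macrophages and microglia the cycle is known to be broken up for synthesis. Citrate leaves for fatty acid synthesis, and aconitate feeds itaconate production.

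After sTREM-1, 6 of the 9 genes were higher (Pcx, Idh3a, Suclg1, Pdha1, Cs and Mdh2), none was called lower, and Ogdh, Dlst and Fh1 did not pass the test. The rises were small. Pcx rose most, 1.31-fold, and Idh3a followed with 1.2-fold, while Mdh2 was 1.05-fold higher. A gene was called at a Benjamini-Hochberg adjusted p under 0.05 in edgeR's quasi-likelihood test over all tested genes. This rule called 30.5% of all tested genes, with 16.5% higher and 14.1% lower. Of the 9 genes it called 66.7%. With a change of at least 1.2-fold required as well, 10.7% of all tested genes and 2 of the 9, Pcx and Idh3a, were called. Idh3a only just reached this limit, with a log2 fold change of 0.2657. In several alternative fits, among them total-count scaling (0.2491) and DESeq2 (0.2625), it fell below 1.2-fold, and in others it stayed above. At an unadjusted p under 0.05 edgeR had 1 of the 9 lower, Dlst, and DESeq2 called 6 higher and 0 lower. The median log2 fold change was 0.10 over the 9 genes and -0.0017 over all tested genes, whose quartiles were -0.13 and 0.13. With libraries scaled by total counts, Mdh2 was not called and Dlst was called lower, which made 5 of the 9 higher and 1 lower. In bulk RNA a change in the number of cells of one state and a change in RNA per cell cannot be told apart.

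**Figure D1:**
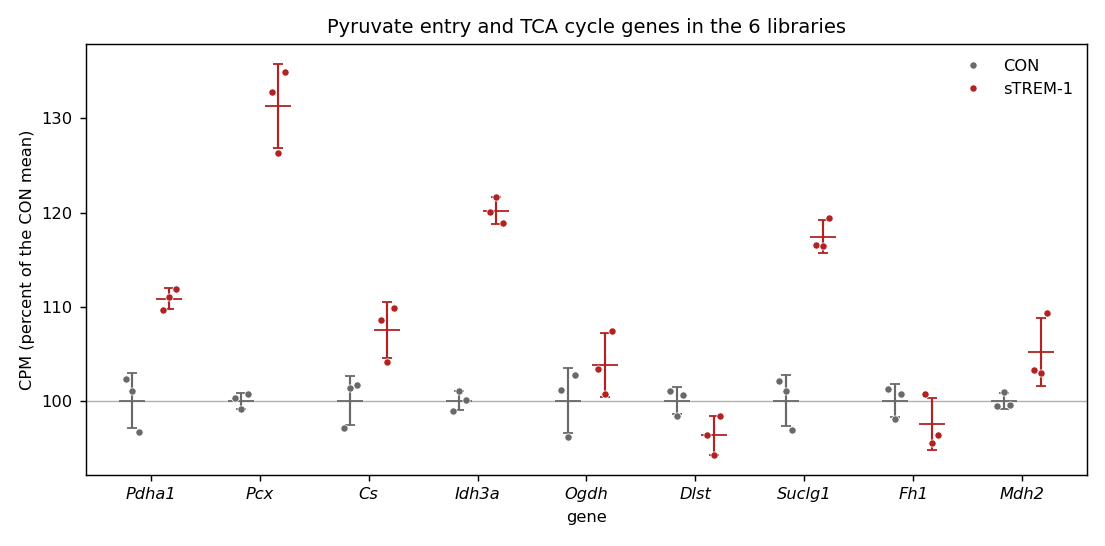
CPM (the gene's counts scaled to a common library size) of each of the 9 genes in each library, as percent of that gene's mean in the 3 CON libraries. Points are libraries, horizontal bars are group means and vertical bars are SD (n = 3). The sTREM-1 libraries of Pcx lie between 126 and 135 percent, and those of Ogdh and Fh1 overlap the CON libraries.

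The stretches of DNA just upstream of 3 of the genes are shown because these genes stand for the range of the response: Pcx, the gene that rose most, Pdha1, the other entry enzyme, and Ogdh, which did not pass the test. Each run is the 250 bases before a transcription start of RefSeq on GRCm38.p6, written 5′ to 3′ on the strand of the gene. Capitals mark CACGTG, the E-box, and ACGTG, the core that hypoxia-inducible factors bind, on either strand.
Pcx, chr19:4510222-4510471, plus strand: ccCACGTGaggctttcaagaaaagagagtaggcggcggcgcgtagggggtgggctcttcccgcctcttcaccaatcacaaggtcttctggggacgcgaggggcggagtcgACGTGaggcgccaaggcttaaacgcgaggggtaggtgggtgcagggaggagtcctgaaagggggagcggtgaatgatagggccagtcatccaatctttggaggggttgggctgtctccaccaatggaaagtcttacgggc
Pdha1, chrX:160138431-160138680, minus strand: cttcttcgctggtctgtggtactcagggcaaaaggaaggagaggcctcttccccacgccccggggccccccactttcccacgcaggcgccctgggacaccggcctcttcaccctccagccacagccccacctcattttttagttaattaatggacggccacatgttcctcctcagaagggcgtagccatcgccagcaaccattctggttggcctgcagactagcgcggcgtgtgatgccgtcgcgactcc
Ogdh, chr11:6291347-6291596, plus strand: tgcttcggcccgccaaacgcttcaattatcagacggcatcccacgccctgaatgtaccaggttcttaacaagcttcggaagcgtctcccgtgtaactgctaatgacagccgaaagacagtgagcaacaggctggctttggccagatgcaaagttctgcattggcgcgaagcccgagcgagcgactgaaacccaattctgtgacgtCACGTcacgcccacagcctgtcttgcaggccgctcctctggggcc
The Pcx stretch holds an E-box at its far end, which contains the ACGTG letters on both strands, and a second ACGTG nearer the start. The Pdha1 stretch holds none of the motifs searched. RefSeq windows of 300 bases, from 250 before to 50 after each start, were found for 8 of the 9 genes, with 14 windows in all. Ogdh has 6 of these windows, which overlap in part, and Pcx has 2. ACGTG was present in 7 of the 14 windows, all 6 of Ogdh and 1 of Pcx, and in 19.6% of the 32851 windows of all genes. CACGTG was present in 4 of the 14, 3 of Ogdh and 1 of Pcx, and in 7.15% of all windows. The 250 bases before the second Pcx start hold none of the motifs. GCGCATGC, the core of the NRF1 motif, was found only for Ogdh (2.71% of all windows), CCGGAAG, an ETS motif, only for Dlst (8.86%), and TCAAGGTCA, the motif of oestrogen-related receptors, in none (0.423%). These matches are letters in a window and were not tested as binding sites.

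Pdha1 and Pcx, which stand for the 2 routes of pyruvate entry among the 9 genes, were both higher. Pdha1 (chromosome X, 160122209 to 160138413 on GRCm38), which encodes the catalytic alpha subunit of pyruvate dehydrogenase, stood at 185, 183 and 175 CPM in the CON libraries and at 198, 201 and 202 CPM after sTREM-1. The groups did not overlap. Its group means were 181 ± 5.26 and 200 ± 2.00 CPM (SD, n = 3), a log2 fold change of 0.15 ± 0.03 (SE, adjusted p = 1.2e-04, edgeR's quasi-likelihood test). Exons of Map3k15 overlap Pdha1 on the other strand, and whether the counting used strand is not given in the sources used here. Map3k15 had 3440 to 3470 counts in the CON libraries and 3232 to 3598 after sTREM-1, with a log2 fold change of -0.05 (adjusted p = 0.327, edgeR).

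Pcx (chromosome 19, 4510472 to 4621752) stood at 63.0, 62.2 and 63.2 CPM in CON and at 83.4, 79.3 and 84.7 CPM after sTREM-1. The 3 CON libraries lay close together and every treated library stood well above them. The means were 62.8 ± 0.525 and 82.5 ± 2.83 CPM (SD, n = 3). The log2 fold change of 0.39 ± 0.04 (SE, adjusted p = 1.2e-09, edgeR) was larger than that of any other of the 9 genes. Of all tested genes, those whose 6 libraries tracked Pcx most closely, by the root mean square difference in log2 CPM after centring on the CON mean, were G6pdx, the entry enzyme of the pentose phosphate pathway (difference 0.01), Card19 (0.02) and Ppp1r12b (0.02). Their log2 fold changes were 0.40, 0.38 and 0.39.

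Cs (chromosome 10, 128337734 to 128362479), which makes citrate, was 252, 263 and 264 CPM in CON and 282, 270 and 285 CPM after sTREM-1. The lowest treated library stood above the highest CON library. Its means of 259 ± 6.66 and 279 ± 7.78 CPM (SD, n = 3) gave a log2 fold change of 0.10 ± 0.03 (SE, adjusted p = 0.00312, edgeR). The related gene Csl shares 4% of the 50-base stretches of Cs and had 0 to 6 counts in any library.

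The steps that release carbon dioxide were unequal. Idh3a (chromosome 9, 54586334 to 54604661), the catalytic subunit of the NAD-dependent isocitrate dehydrogenase, was 75.7, 77.3 and 76.5 CPM in CON and 91.8, 93.1 and 90.9 CPM after sTREM-1. The groups were far apart next to the spread within each of them. Its means of 76.5 ± 0.790 and 92.0 ± 1.08 CPM (SD, n = 3) differed by 0.27 ± 0.03 on the log2 scale (SE, adjusted p = 3.4e-07, edgeR).

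Ogdh (chromosome 11, 6291633 to 6356642), the first component of the oxoglutarate dehydrogenase complex, was 203, 193 and 206 CPM in CON and 208, 202 and 216 CPM after sTREM-1. The groups overlapped. The log2 fold change was 0.05 with a 95% interval from -0.01 to 0.11 (adjusted p = 0.184, edgeR). Dlst (chromosome 12, 85110833 to 85134845), the second component of the same complex, which carries its lipoyl arm, was 358, 348 and 356 CPM in CON and 341, 334 and 348 CPM after sTREM-1. The groups were separated by 0.0924 CPM, with the treated libraries below. The log2 fold change of -0.05 had a 95% interval from -0.10 to -0.005, and the adjusted p was 0.0927 (edgeR). It was called lower under total-count scaling (-0.07, adjusted p = 0.0240) and without sTREM-1 replicate 3 (-0.07, adjusted p = 0.0324).

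From succinyl-CoA onwards, Suclg1 rose 1.17-fold and Mdh2 1.05-fold, and Fh1 was not called. Suclg1 (chromosome 6, 73248382 to 73276911), the alpha subunit shared by both succinyl-CoA ligases, was 53.7, 53.2 and 51.0 CPM in CON and 61.3, 61.3 and 62.9 CPM after sTREM-1. The groups did not overlap. The means were 52.6 ± 1.43 and 61.8 ± 0.911 CPM (SD, n = 3), with a log2 fold change of 0.23 ± 0.04 (SE, adjusted p = 3.9e-05, edgeR). Fh1 (chromosome 1, 175600374 to 175625635), which hydrates fumarate to malate, was 120, 116 and 119 CPM in CON and 119, 113 and 114 CPM after sTREM-1. These groups overlapped, and the log2 fold change of -0.04 had a 95% interval from -0.10 to 0.03 (adjusted p = 0.446, edgeR).

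Mdh2 (chromosome 5, 135778480 to 135790398), the mitochondrial malate dehydrogenase that closes the cycle, was 346, 351 and 347 CPM in CON and 359, 358 and 381 CPM after sTREM-1. All treated libraries stood above CON, and 1 of them, replicate 3, stood apart from the other two. The log2 fold change was 0.07 ± 0.03 (SE, adjusted p = 0.0286, edgeR). Without sTREM-1 replicate 3 it was 0.04 (adjusted p = 0.208), and the call was also lost without CON replicate 1 (adjusted p = 0.104), without CON replicate 3 (0.0966) and under total-count scaling (0.0916).

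Levels of different genes were compared as CPM per kilobase of the principal transcript. In the CON libraries Mdh2 was highest at 239 ± 2.01, followed by Dlst at 128 ± 1.83, Cs at 88.7 ± 2.28 and Pdha1 at 63.5 ± 1.85 CPM per kilobase (SD, n = 3). Ogdh at 48.6 ± 1.68, Fh1 at 44.9 ± 0.774, Suclg1 at 34.7 ± 0.943 and Idh3a at 31.8 ± 0.329 came next, and Pcx was lowest at 15.5 ± 0.129. No neighbours in this order overlapped in either group, and the order was the same after sTREM-1. With the coding length in place of the transcript length, the ranks of Ogdh, Fh1, Suclg1 and Idh3a changed, while the first 4 genes and Pcx kept theirs. On the transcript scale the genes that rose most, Pcx, Idh3a and Suclg1, held the last 3 places. On coding length this did not hold, as Idh3a ranked 6 and Ogdh, which was not called, ranked 7.

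Partner subunits of the same complexes were not all called together. In pyruvate dehydrogenase, Pdha1 rose while Dld, the dihydrolipoyl dehydrogenase that this complex shares with oxoglutarate dehydrogenase, was 428, 420 and 404 CPM in CON and 381, 392 and 380 CPM after sTREM-1. The Dld groups did not overlap, and the gene fell by 0.12 on the log2 scale (SE 0.02, adjusted p = 4.3e-04, edgeR). Pdhb, the beta subunit that pairs with Pdha1, was 118, 123 and 117 CPM in CON and 116, 115 and 115 CPM after sTREM-1 (log2 fold change -0.05, adjusted p = 0.30, edgeR). Dlat, the acetyltransferase core, had a log2 fold change of -0.03 (adjusted p = 0.576). Pdhb shares 30.3% of its 50-base stretches with a similar gene, Gm6123, so part of its reads may have been assigned elsewhere. Pdhx, which anchors Dld to the core, was called higher (log2 fold change 0.55, adjusted p = 0.00684, edgeR) although its groups overlapped. It was 6.35, 5.68 and 5.17 CPM in CON and 6.35, 7.01 and 11.9 CPM after sTREM-1. Without the last of these libraries the log2 fold change was 0.22 (adjusted p = 0.246), and DESeq2 did not call it (adjusted p = 0.160).

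**Figure D2:**
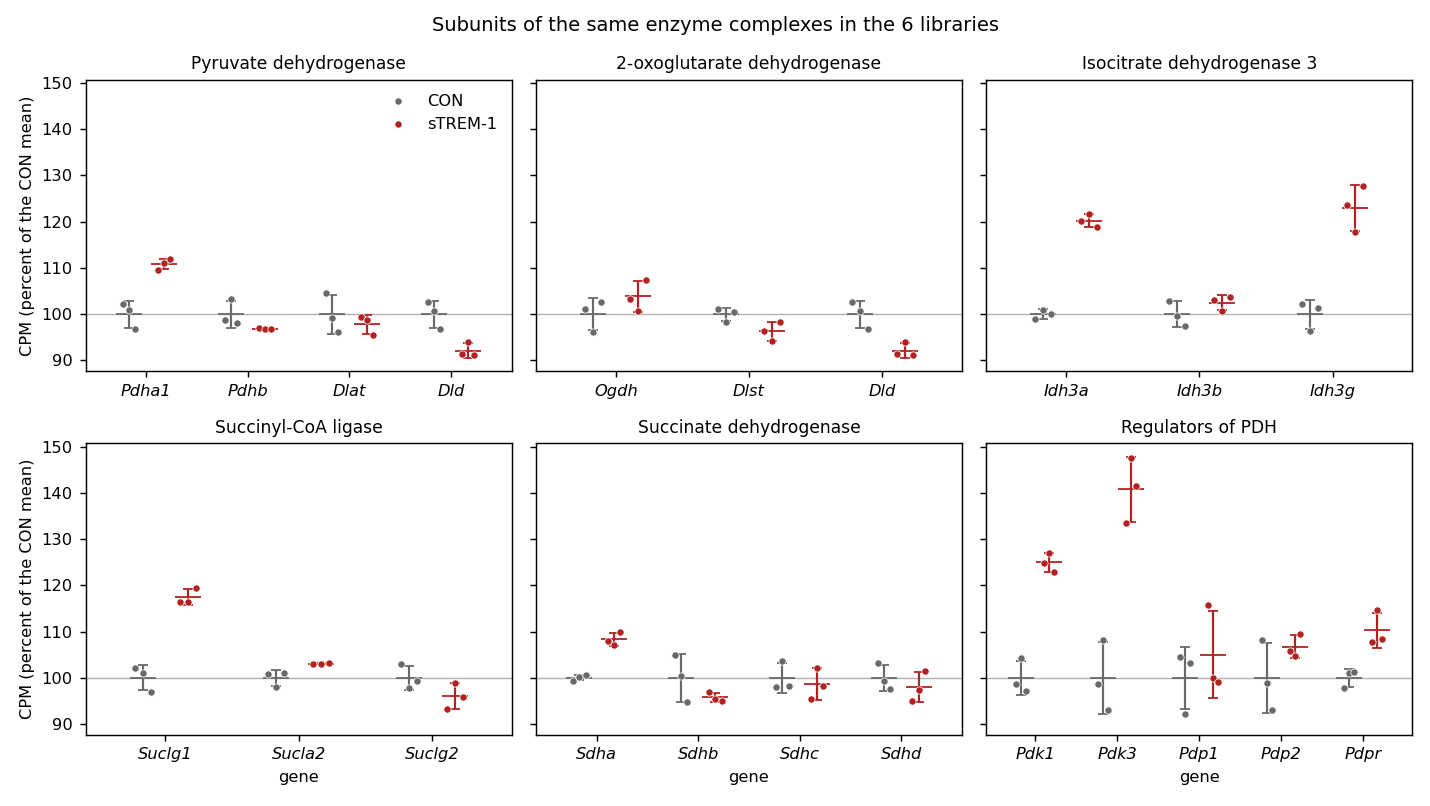
CPM of the subunits of 5 enzyme complexes and of the regulators of pyruvate dehydrogenase in each library, as percent of the gene's mean in the 3 CON libraries. Points are libraries, horizontal bars are means and vertical bars are SD (n = 3). Pdha1 lies above CON while Dld lies below, and Idh3a and Idh3g lie above while the Idh3b libraries lie between 97.4 and 104 percent. Pdhx is left out of the plot because 1 of its libraries would set the scale.

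In the NAD-dependent isocitrate dehydrogenase, Idh3g, a regulatory subunit, rose with Idh3a. It was 79.1, 74.5 and 78.4 CPM in CON and 95.6, 91.1 and 98.8 CPM after sTREM-1 (log2 fold change 0.30 ± 0.04 SE, adjusted p = 1.9e-07, edgeR). Idh3b, the other regulatory subunit, was 137, 133 and 130 CPM in CON and 137, 134 and 138 CPM after sTREM-1. Its groups overlapped, with a log2 fold change of 0.04 (95% interval -0.03 to 0.10, adjusted p = 0.426). The ligase partners of Suclg1 did not pass the test either. Sucla2, the ATP-forming beta subunit, had a log2 fold change of 0.04 (adjusted p = 0.400), and Suclg2, the GTP-forming one, had -0.06 (adjusted p = 0.274). Of the succinate dehydrogenase subunits, Sdha, the flavoprotein, rose by 0.12 on the log2 scale (357 ± 2.03 to 387 ± 4.95 CPM, SD, n = 3, adjusted p = 2.4e-04, edgeR), while Sdhb, Sdhc and Sdhd had log2 fold changes of -0.06, -0.02 and -0.03 and were not called.

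Ratios of 2 genes within a library do not depend on how libraries are scaled. Of 13 such ratios, each per kilobase of transcript, 11 did not overlap between the groups. For each of these 11 the exact permutation test over the 6 libraries (two-sided) gave p = 0.10, the smallest that 3 against 3 allow, and 0.118 after Benjamini-Hochberg adjustment over the 13. No ratio can therefore pass 0.05 in this exact test. Single genes were separate between the groups in 40.7% of all tested genes. The share of other gene pairs whose ratios separate was not computed, so the count of 11 is not a result about these genes. The 6 ratios of Pdha1 to Pdhb and Dld, Idh3a to Idh3b and Idh3g, and Suclg1 to Sucla2 and Suclg2 were added after seeing the data. As the changes of these genes were then known, whether these 6 separate is not independent evidence. The other 7 were fixed with the design, but the members and lists were chosen with earlier results of these data known. Each ratio also restates the changes of its 2 genes, so none of the 13 is independent evidence. Pdha1 to Dld was 0.387 ± 0.00150 in CON and 0.466 ± 0.00906 after sTREM-1 (SD, n = 3). Pdha1 to Pdhb went from 0.806 ± 0.0257 to 0.922 ± 0.0102, and Suclg1 to Suclg2 from 1.69 ± 0.0498 to 2.06 ± 0.0686. Idh3a to Idh3b was 0.387 ± 0.0133 in CON and 0.453 ± 0.0123 after sTREM-1. Idh3a to Idh3g, in contrast, overlapped (0.548 ± 0.0229 and 0.536 ± 0.0283, exact permutation p = 0.60). At the entry point, Pcx to Pdha1 was 0.239, 0.239 and 0.254 in CON and 0.295, 0.277 and 0.294 after sTREM-1. Dlst to Ogdh was 2.63, 2.70 and 2.58 in CON and 2.45, 2.46 and 2.41 after sTREM-1, lower in every treated library. Suclg1 to Sucla2 was 1.08 ± 0.0408 in CON and 1.23 ± 0.0163 after sTREM-1.

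Of the 7 listed kinases and phosphatases of pyruvate dehydrogenase 5 were tested, of which 3 were higher and none lower. The share called was 60.0%, against 30.5% of all tested genes. The kinases Pdk2 and Pdk4 had 0 counts in every library. Whether these zeros come from the cells or from the annotation used for counting was not tested. Pdk1, a kinase that switches the complex off, was 136, 143 and 134 CPM in CON and 172, 175 and 169 CPM after sTREM-1. The groups were well apart (log2 fold change 0.32 ± 0.03 SE, adjusted p = 1.0e-09, edgeR), and Pdk1 to Pdha1 went from 0.418 ± 0.0142 to 0.471 ± 0.0103 (SD, n = 3). Pdk3, a related kinase of lower level, was 17.5, 19.2 and 16.5 CPM in CON and 23.6, 26.1 and 25 CPM after sTREM-1 (log2 fold change 0.49 ± 0.07 SE, adjusted p = 1.7e-06). Pdpr, a regulatory subunit of the opposing phosphatase, rose by 0.14 on the log2 scale (adjusted p = 0.0103, edgeR), a call that was lost without CON replicate 1 or sTREM-1 replicate 2. The catalytic phosphatase subunits Pdp1 and Pdp2 were not called. The mitochondrial pyruvate carrier, Mpc1 and Mpc2, was not called either (log2 fold changes 0.06 and 0.02). DESeq2 called 0 of these 2 carrier genes, and neither had an unadjusted p under 0.05 in edgeR.

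Over the other genes of pyruvate entry, the cycle and its branches, 48 of 51 were tested, of which 17 were higher, 5 lower and 26 not called. The share called was 45.8%, against 30.5% of all tested genes, and the median log2 fold change was 0.06. Of the 11 other cycle enzymes 4 were higher, among them Idh3g, Sdha and Idh2 (0.17, adjusted p = 2.8e-05, edgeR), the NADP-dependent mitochondrial isocitrate dehydrogenase. The share called among these 11 was 36.4%, near that of all tested genes. Of the 7 genes for lipoate attachment and succinate dehydrogenase assembly none was called in either direction by edgeR's quasi-likelihood test or by DESeq2, and 1, Sdhaf1, had an unadjusted p under 0.05 in edgeR.

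**Figure D3:**
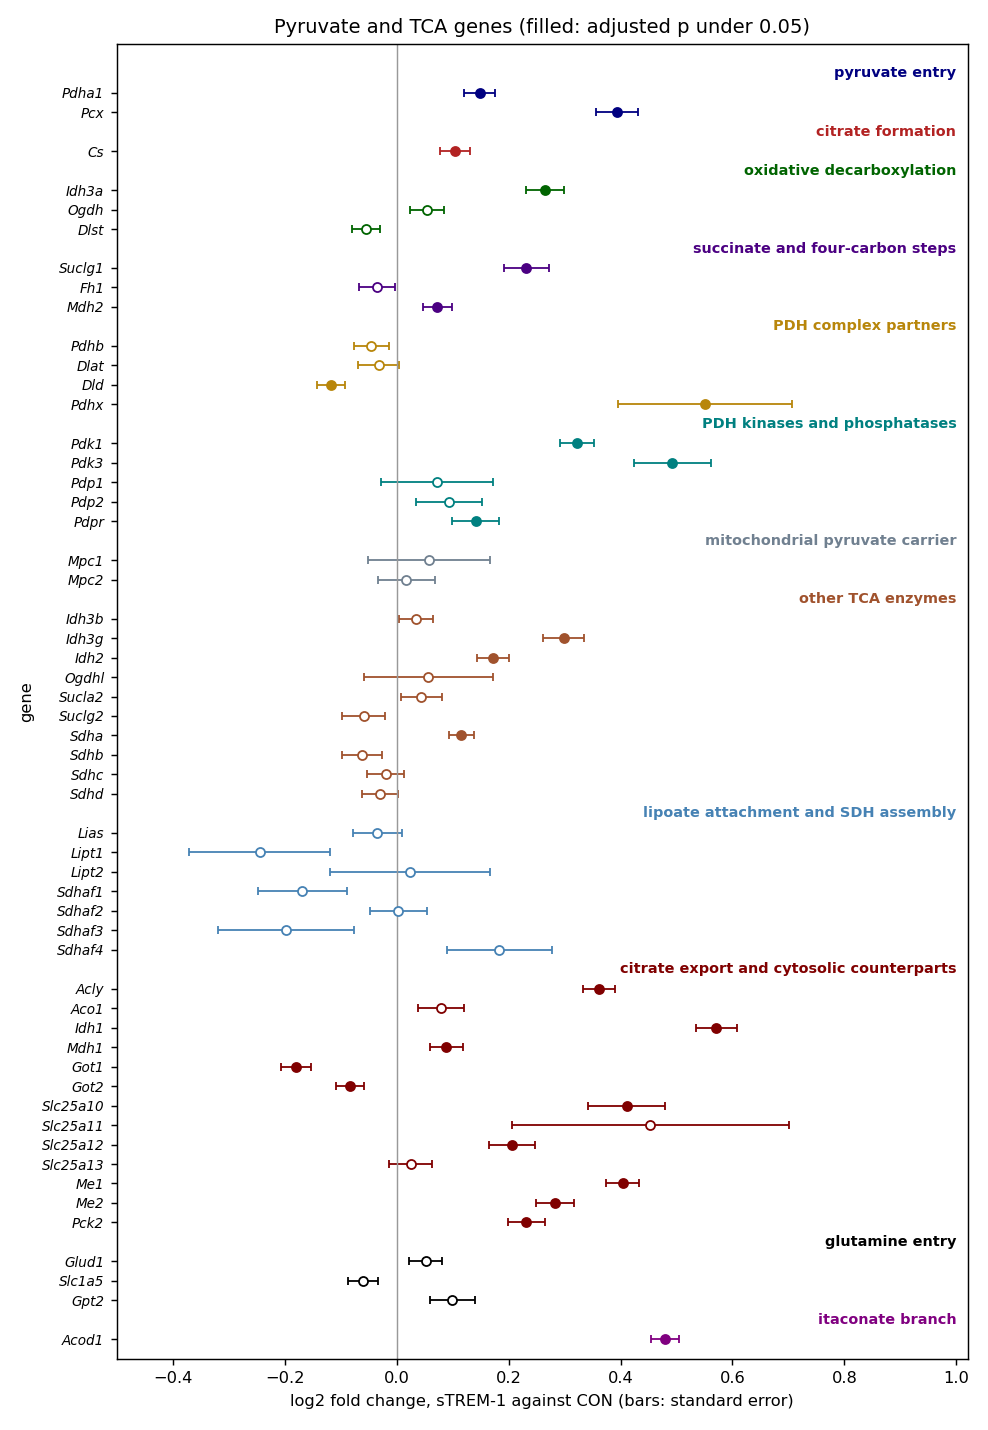
log2 fold change of sTREM-1 against CON for the 9 genes (first 4 groups) and other tested genes of pyruvate entry, the cycle and its branches, with standard errors as bars. Filled points passed an adjusted p of 0.05. The citrate export and cytosolic group holds Idh1 at 0.57 and Acly at 0.36. Slc25a1, at -1.92, is left out because it would set the scale, and the plot shows only genes that are reported here.

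Among the genes of citrate export and its counterparts, Idh1, Acly and the malic enzymes Me1 and Me2 rose, and the malic enzyme Me3 was too low to be tested. Of 14 tested genes of citrate export and its cytosolic counterparts, 8 were higher and 3 lower, with a median of 0.22. The share called was 78.6%, against 30.5% of all tested genes. Idh1, the cytosolic isocitrate dehydrogenase that makes NADPH, was 66.0, 65.6 and 63.1 CPM in CON and 99.5, 94.1 and 95.5 CPM after sTREM-1 (log2 fold change 0.57 ± 0.04 SE, adjusted p = 2.3e-13, edgeR). Acly, which splits exported citrate into acetyl-CoA and oxaloacetate, was 161, 164 and 167 CPM in CON and 206, 208 and 217 CPM after sTREM-1 (0.36 ± 0.03, adjusted p = 2.1e-11). Every treated library of both genes stood above every CON library. The cytosolic malic enzyme Me1 (0.40, adjusted p = 3.5e-12) and the mitochondrial Me2 (0.28, adjusted p = 8.2e-08) also rose, and Acly to Cs went from 0.420 ± 0.00596 to 0.502 ± 0.0147 (SD, n = 3). Part of the Me1 reads may be shared with the similar gene Gm7049, since other genes hold 27% of its 50-base stretches.

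The 3 genes called lower in this group, which are named for their count, were Got1 (log2 fold change -0.18) and Got2 (-0.08), the aspartate aminotransferases, and Slc25a1, the citrate carrier. Slc25a1 was 2.25, 0.780 and 8.21 CPM in CON and 0.70, 1.13 and 1.16 CPM after sTREM-1, so its groups overlapped. Its log2 fold change was -1.92 (adjusted p = 0.00101, edgeR), and -0.61 without CON replicate 3 (adjusted p = 0.265). DESeq2 did not call it (adjusted p = 0.0991). The cytosolic malate dehydrogenase Mdh1 moved with Mdh2, with a log2 fold change of 0.09 (adjusted p = 0.0202, edgeR), a call that was lost under total-count scaling, with the GC and length correction, without CON replicate 2 and without sTREM-1 replicate 3. Mdh1 to Mdh2 was 0.351 ± 0.0110 in CON and 0.355 ± 0.00347 after sTREM-1 (exact permutation p = 0.90).

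Acod1, which turns aconitate into itaconate and is a known marker of activated myeloid cells, was 487, 470 and 495 CPM in CON and 667, 654 and 704 CPM after sTREM-1. The groups lay far apart (log2 fold change 0.48 ± 0.03 SE, adjusted p = 5.2e-15, edgeR), and Acod1 to Cs rose from 2.08 ± 0.0809 to 2.70 ± 0.0580 per kilobase (SD, n = 3).

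Beside the cycle, all 17 tested genes of glycolysis and lactate formation were higher, with log2 fold changes from 0.15 to 0.66 and a median of 0.31. The share called was thus 100%, against 30.5% of all tested genes. Ldhb, also on this list, had 0 counts in every library and was not tested. Pfkl, a subunit of the committing kinase of glycolysis, was 97.6 ± 1.92 CPM in CON and 154 ± 1.83 CPM after sTREM-1 (log2 fold change 0.66). Ldha, which turns pyruvate into lactate, was 1360, 1389 and 1363 CPM in CON and 1892, 1884 and 1887 CPM after sTREM-1 (0.46 ± 0.02 SE, adjusted p = 7.4e-18, edgeR). Gpi1 (0.42) and Pkm (0.34) rose as well. Ldha to Pdha1 went from 12.2 ± 0.355 to 15.2 ± 0.176 per kilobase (SD, n = 3). The Ldha, Pkm and Gpi1 transcripts share 17.1%, 34.4% and 19.3% of their 50-base stretches with other genes, and Gapdh, Eno1 and Pgk1 share 82.5%, 72.2% and 68%, so the counts of these genes are uncertain. The same holds for Suclg2 (21.8%), Got2 (32.3%), Pgam1 (41.5%) and Mpc1 (26.4%), and Idh3b, Mdh1, Mpc1, Pdpr, Me1, Gpi1, Got2, Cox5a and Atp5a1, among others, have exons that overlap a gene on the other strand.

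Of 19 nuclear genes of the respiratory chain and ATP synthase, 4 were higher, none lower and 15 not called, with a median of 0.06. The share called was 21.1% in the main fit, below the 30.5% of all tested genes. The number called was 9 with the GC and length correction and 3 to 6 in the other alternative fits. The share was therefore not below that of all tested genes in every fit. DESeq2 called 4 higher and 0 lower, and edgeR had 7 higher and 2 lower at an unadjusted p under 0.05. The 4 were Atp5a1 (0.10), Atp5b (0.07), Ndufv1 (0.11) and Cox5a (0.12), and the Atp5b call was lost under total-count scaling and without sTREM-1 replicate 1. Of 9 regulators of mitochondrial genes only Ppargc1b, a coactivator of mitochondrial gene expression, was called (11.1% of the list). It was 28 ± 0.885 CPM in CON and 24.2 ± 1.08 CPM after sTREM-1 (SD, n = 3), a fall of 0.21 on the log2 scale (adjusted p = 0.00595, edgeR). The differences between these lists were not tested.

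**Figure D4:**
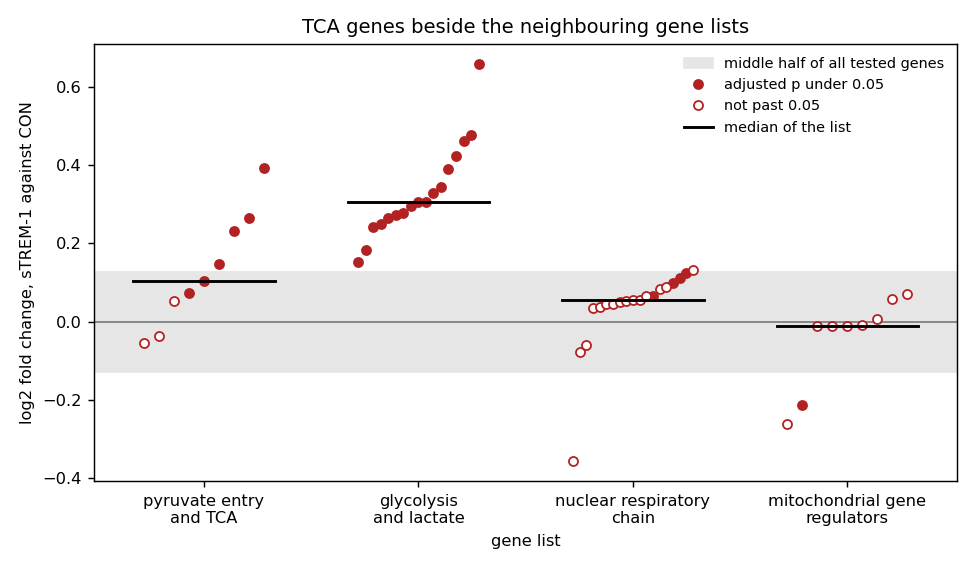
log2 fold change of sTREM-1 against CON for the 9 genes beside the tested genes of glycolysis and lactate formation, the nuclear respiratory chain and regulators of mitochondrial genes. Filled points passed an adjusted p of 0.05, black lines are list medians, and the grey band runs from the lower to the upper quartile of all tested genes. The glycolysis genes lie between 0.15 and 0.66, all above the band.

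The libraries held 40070633 to 45877107 counts each, and libraries differed much less within a group than between groups (chi-square per gene 3.46 to 5.04 against 20.6 to 22.6). The libraries of the groups were separate in 40.7% of all tested genes, in 7 of the 9 genes and in 27 of the 48 other pathway genes. The share of counts from 13 mitochondrially encoded genes was 1.57, 1.64 and 1.65% in CON and 1.74, 1.73 and 1.74% after sTREM-1, with exact permutation p = 0.10. Its part in the results was not tested. Of 10 microglial and myeloid markers 9 were detected, with Aif1 at 0, and Cx3cr1, P2ry12 and Tmem119, markers of resting microglia in the brain, stood at 0.563 to 2.18 CPM. The summed level of the 10 was 2089 to 2116 CPM in CON and 2338 to 2414 CPM after sTREM-1, and Csf1r alone went from 517 to 523 up to 730 to 770 CPM. Summed markers of astrocytes, neurons, oligodendrocytes, endothelial cells and fibroblasts reached at most 7.84 CPM in any library. Of these markers, Aldh1l1, Aqp4, Rbfox3, Mog, Cldn5, Col1a2 and Dcn had 0 counts in every library. Whether these zeros and that of Aif1 come from the cells or from the annotation used for counting was not tested.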

How the data were processed

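RNA of BV2 cells was sequenced in 3 CON and 3 sTREM-1 libraries. The deposited values are raw counts, as whole numbers for each gene symbol, and the authors state that RSEM was used for quantification and edgeR for differential expression. The submitters' processing notes name HISAT2 2.0.4 and the human builds GRCh38 and hg19, whereas the gene symbols are those of mouse. The mouse build, the annotation and the strand setting are not given in the sources used here, so reads of overlapping or similar genes may have been split. The methods give another number of replicates than the labels, and the labels were followed.

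Genes of low count were removed by filterByExpr at a minimum of 10. The 2 groups were then compared without covariates by edgeR 4.0.16 (R 4.3.3), using TMM scaling and its quasi-likelihood F test. Adjusted p-values are Benjamini-Hochberg values over all 14120 tested genes, called under 0.05. The procedure was tested on simulated counts in which fewer genes changed, each by more than any of the 9 genes did. That test therefore does not show how well changes as small as theirs are called. CPM values were scaled by TMM, and lengths, coordinates and shared 50-base stretches came from GENCODE M21 (GRCm38). Ratios were tested with exact permutation tests in SciPy 1.17.1. Of the 13 ratios, 6 were added after seeing the data. The members and lists were chosen with earlier results of these data known. All 9 genes were described, and from the other lists called genes whose groups did not overlap, at most 4 per list by smallest p, with every gene that entered a ratio and the 3 genes nearest to the member of smallest p. Other genes were named after their values were seen. A few genes are not reported here. Alternatives were RLE and total-count scaling, other count filters, a minimum change, DESeq2 1.42.0, a replicate block, leaving out each library and, added later, a correction for GC content and length. Same-numbered libraries did not deviate together (correlations -0.0178, -0.0335 and -0.0137). No pairing by number was seen, though such correlations cannot exclude a weak one. Depth was 40070633 to 45877107 counts per library.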

Additional observations from a re-analysis of the deposited data

How the results depend on the processing

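No member changed sign in 13 alternative fits. Of 117 member values 109 kept their call, 5 lost it (all Mdh2) and 3 gained it (all Dlst). Mdh2 had log2 fold changes of 0.0560 under total-count scaling and 0.0521 with the GC and length correction, added after seeing the data (adjusted p = 0.0730), and 0.0425 to 0.0861 with 1 library left out. Dlst had -0.0712 and -0.0724 under the same alternatives and -0.0715 to -0.0407 with 1 library left out. With at least a 1.2-fold change required in the main fit, the calls fell to 1517 genes, 2 members and 11 other pathway genes. One of the 2 members, Idh3a, lay close to that limit. The pathway median was 0.0410 under total-count scaling. The GC and length correction, with values for 90.7% of tested genes, called 9 respiratory chain genes and 2 regulators. With the replicate block 4613 genes and 6 members were called, so the block changed no member's call. DESeq2 called 4027 genes and the same 6 members, and leaving out 1 library left 3608 to 3863 genes and 5 to 6 members. The difference between sTREM-1 and CON in the log2 ratio of Mdh1 to Mdh2 was -0.0096 to 0.0332 with 1 library left out. For Idh3a to Idh3g this difference was -0.0729 to 0.0025. The highest level per kilobase was 15.5 times the lowest, and 19.3 times on coding length. That length came from GENCODE, added after seeing the data, and the planned RefSeq protein length was not run. What causes these differences between settings was not tested. With 3 libraries a group, members with intervals that include 0 may still differ by the sizes those intervals allow.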
